A study of Homo sapiens with 6 samples.

Results

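Epithelial-mesenchymal transition (EMT) is governed by a small set of opposing regulators, of which 10 were followed here by their gene symbols: the EMT transcription factors SNAI1, SNAI2, ZEB1, ZEB2, TWIST1 and TWIST2, the epithelial transcription factors GRHL2 and OVOL1, and the epithelial splicing factors ESRP1 and ESRP2. All 10 were present among the 19395 genes of the counts table. The table holds polyadenylated RNA from 6 libraries of cells labelled as DLD-1, an established human colorectal adenocarcinoma line. The 3 oeTNFRSF12A libraries come from cells with TNFRSF12A overexpression induced by doxycycline at 0.1 µg/mL for 48 h. The 3 oeControl libraries are labelled WT and untreated, so overexpression, doxycycline and any expression construct cannot be told apart. TNFRSF12A, the receptor of the cytokine TWEAK, averaged 65.9 ± 4.29 CPM (counts scaled to a common library size) in oeTNFRSF12A libraries and 21.97 ± 1.60 CPM in oeControl libraries (SD, n = 3 each). No label states that replicates were separate cultures, so the p-values below rest on the spread among these 6 libraries alone, and that spread may be technical.

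SNAI1, SNAI2, ZEB1 and ZEB2 are zinc finger proteins that bind E-box motifs and repress epithelial genes such as CDH1, while TWIST1 and TWIST2 are basic helix-loop-helix factors that act with E proteins. GRHL2 and OVOL1 keep epithelial genes active and restrain ZEB1, and ESRP1 and ESRP2 impose the epithelial splice forms of receptors and adhesion proteins. ZEB1 and ZEB2 are in turn held down by the miR-200 microRNAs, whose genes they repress. Carcinoma lines of the colon differ in where they stand on this axis.

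Library totals ranged from 18154839 to 18406885 counts. Of 20 colorectal epithelium markers, 4 (KRT8, KRT18 and ELF3 among them) were at 1 CPM or more in each of the 6 libraries. The other 16 were below 1 CPM throughout, and the defining markers EPCAM, CDX2, VIL1 and CDH17 had sums of 0 to 10 counts per group. These levels go against the labelled colon epithelium, so the identity of the cells is in doubt, and baseline levels given here are those of the libraries as labelled. All 20 markers together, carried by KRT8, KRT18 and ELF3, summed to 408 to 424 CPM in oeTNFRSF12A libraries and 436 to 439 CPM in oeControl libraries. Of 10 kidney epithelium markers 4 were below 1 CPM throughout, 1 of them at 0 counts. All 10 together summed to 173 to 186 CPM in oeTNFRSF12A and 188 to 198 CPM in oeControl libraries. Of these 10, 5 reached 1 CPM in all libraries. Of 10 fibroblast markers 4 did so (COL1A1, COL1A2, COL3A1 and FAP), while DCN and LUM had 0 counts. The fibroblast sums, carried by COL1A1 and COL1A2, were 1119 to 1167 CPM in oeTNFRSF12A and 1559 to 1669 CPM in oeControl libraries. Endothelial markers summed to 0.916 to 1.69 CPM in oeTNFRSF12A and 1.49 to 2.28 CPM in oeControl libraries, with VWF, TEK and ERG at 0 counts. Of 10 leukocyte markers 2 reached 1 CPM in all libraries. Leukocyte markers summed to 9.61 to 12.3 CPM in oeTNFRSF12A and 7.55 to 9.02 CPM in oeControl libraries, with CD3E and MS4A1 at 0 counts. The part of these markers in the results was not tested.

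Every library held at least 281 counts of ZEB1, ZEB2 and TWIST1, fewer of SNAI1, SNAI2, TWIST2 and the ESRP genes, and at most 1 of GRHL2 and OVOL1. None of the 10 regulators was called higher with TNFRSF12A overexpression. TWIST1 fell to 0.843-fold, ESRP2 to 0.808-fold and ESRP1 to 0.569-fold of the oeControl level, a count of 3 called among the 8 that could be tested (37.5%). Over all 12758 genes tested, 42.3% were called at an adjusted p under 0.05 in edgeR's quasi-likelihood test, 21.2% higher and 21.1% lower in oeTNFRSF12A libraries, so the share among the regulators lay near the background. The median log2 fold change of the 8 was -0.24, against 0.003 over all tested genes. In bulk RNA, fewer cells expressing a gene and less RNA per cell cannot be told apart.

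**Figure D1:**
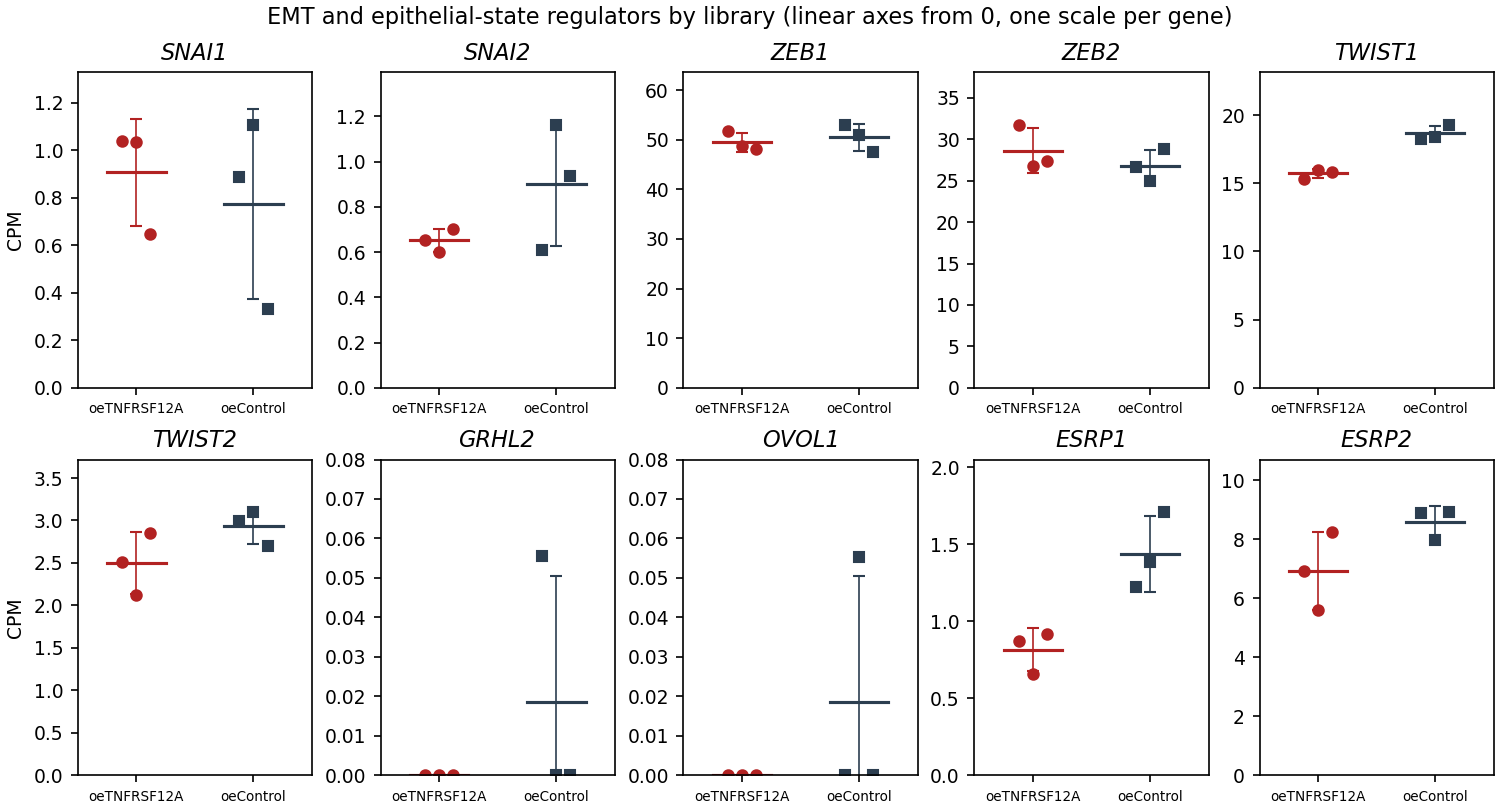
CPM of each of the 10 regulators in the 3 oeTNFRSF12A libraries (red circles) and the 3 oeControl libraries (dark squares), with the mean and SD of each group, on linear axes that start at 0 and differ by gene. TWIST1 and ESRP1 are the panels in which all oeTNFRSF12A libraries lie below all oeControl libraries, and GRHL2 and OVOL1 have 1 library each above 0.

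SNAI1, which encodes the Snail repressor of CDH1, occupies bases 49982999 to 49988886 of chromosome 20, plus strand (positions here and in what follows are those of GENCODE 29 on GRCh38). It had 19, 19 and 12 counts in oeTNFRSF12A libraries, against 16, 20 and 6 counts in oeControl libraries. The groups overlapped, with the lowest value in oeControl replicate 3. The ratio of summed counts, 50 in oeTNFRSF12A and 42 in oeControl libraries, was 1.19 with an exact (Clopper-Pearson) 95% interval of 0.771 to 1.83, which covers counting error only. The fitted log2 fold change was 0.22 (SE 0.35, adjusted p = 0.633), and without oeControl replicate 3 it was -0.14.

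SNAI2, the Slug paralog of SNAI1, occupies bases 48917604 to 48921740 of chromosome 8, minus strand. It had 12, 11 and 13 counts in oeTNFRSF12A libraries and 11, 21 and 17 counts in oeControl libraries. The ratio of sums was 0.732 (counting interval 0.462 to 1.15), and a log2 fold change of -0.47 (SE 0.32, adjusted p = 0.247) left the gene uncalled. With fewer than 22 counts in any library, changes of either SNAI gene smaller than these intervals were not detectable at this depth.

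ZEB1, a repressor with a zinc finger cluster at each end and a homeodomain between them, spans 31318495 to 31529814 on the plus strand of chromosome 10. It had 947, 894 and 893 counts in oeTNFRSF12A libraries, against 955, 920 and 864 counts in oeControl libraries. The ranges of the groups lay over each other. Means were 49.5 ± 1.91 CPM in oeTNFRSF12A and 50.5 ± 2.72 CPM in oeControl libraries. The log2 fold change was -0.03 (SE 0.05, adjusted p = 0.679), with a 95% interval of -0.13 to 0.07, so the interval of the fold is 0.914 to 1.05. Of its exons, 366 bp are shared with the opposite-strand gene ZEB1-AS1, and reads of both cannot be told apart without a stated strand setting.

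ZEB2, the paralog of ZEB1, spans 144364364 to 144524583 on the minus strand of chromosome 2. Counts were 581, 492 and 507 in oeTNFRSF12A libraries and 480, 452 and 523 in oeControl libraries. OeTNFRSF12A replicate 1 was the highest of the 6, and the other oeTNFRSF12A libraries fell inside the oeControl range. Means were 28.6 ± 2.70 CPM in oeTNFRSF12A and 26.8 ± 1.91 CPM in oeControl libraries. The log2 fold change of 0.09 (SE 0.07, adjusted p = 0.287) had a 95% interval of -0.05 to 0.24. The opposite-strand gene ZEB2-AS1 shares 1299 bp of its exons.

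The miR-200 microRNAs are shown because ZEB1 and ZEB2, well known targets of this family, were expressed in every library and stayed uncalled. The microRNAs themselves were not analysed here. The 4 mature sequences shown come from RefSeq (GRCh38.p14), written 5′ to 3′ with the seed (bases 2 to 8) in capitals. They fall into 2 pairs by shared seed. A sequence for miR-429 was sought as well but was not found under the name used, so the family is not shown in full.
hsa-miR-200b-3p: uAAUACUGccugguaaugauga
hsa-miR-200c-3p: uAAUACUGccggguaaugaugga
hsa-miR-141-3p: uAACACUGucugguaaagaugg
hsa-miR-200a-3p: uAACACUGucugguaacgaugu
The miR-200c-3p and miR-141-3p sequences lie on the plus strand of chromosome 12 (chr12:6963742-6963764 and chr12:6964155-6964176), and the miR-200b-3p and miR-200a-3p sequences on that of chromosome 1 (chr1:1167160-1167181 and chr1:1167916-1167937).

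Perfect complements of these seeds, CAGTATT and CAGTGTT, were counted on the transcript strand in the longest annotated 3′ UTR of each regulator; they differ from each other, so no match is counted under both. The ZEB1 UTR of 2549 bases held 6 of CAGTATT and 3 of CAGTGTT. The ZEB2 UTR of 5370 bases held 5 and 4. SNAI2 and GRHL2 had 1 match each, ESRP1 had 2, and SNAI1, TWIST1, TWIST2, OVOL1 and ESRP2 had 0. At least 1 match was present in 45.6% of the 2937 UTRs within 25% of the ZEB1 length, and 9 or more in 0.0340%, which is ZEB1 itself. Among the 1436 UTRs of about the ZEB2 length these shares were 72.3% and 0.139%. A match is a stretch of letters and not a measured site. For each gene 2 of its 9 matches are given, with the match in capitals after the 15 bases that precede it.
ZEB1 match at base 369: attgttttatcttatCAGTATTa
ZEB1 match at base 463: atgctaaatccgcttCAGTATTt
ZEB2 match at base 392: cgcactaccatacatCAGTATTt
ZEB2 match at base 455: cgcactacaatgcatCAGTATTa
Bases are numbered from the start of the UTR.

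TWIST1, a mesoderm factor that represses CDH1 in EMT, was lower in oeTNFRSF12A libraries. The gene occupies 19020991 to 19117672 on the minus strand of chromosome 7 and shares some exon sequence with an antisense gene model, AC003986.2. It had 281, 293 and 294 counts in oeTNFRSF12A libraries, against 329, 333 and 350 counts in oeControl libraries. Every oeTNFRSF12A library was below every oeControl library. Means were 15.7 ± 0.33 CPM in oeTNFRSF12A and 18.7 ± 0.55 CPM in oeControl libraries. The log2 fold change was -0.25 (SE 0.07, adjusted p = 0.00597), a fold of 0.843 with a 95% interval of 0.763 to 0.931. The call was kept under all 12 alternatives, with adjusted p-values of 0.00465 to 0.0441.

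The 3 genes whose centred log2 CPM ran closest to that of TWIST1 over the 6 libraries, among 11452 others with a mean of at least 50 counts, were C8orf48, RGL3 and CARMIL1. Their root mean square differences from TWIST1 were 0.0185, 0.0207 and 0.0216 on the log2 scale. Their log2 fold changes were -0.25, -0.28 and -0.23. Picking the closest of 11452 genes over 6 libraries selects for such likeness, also in fold change. Shared regulation was not tested.

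TWIST2, the shorter paralog of TWIST1, begins at 238848032 and ends at 238910543 on the plus strand of chromosome 2. It had 46, 39 and 53 counts in oeTNFRSF12A libraries and 54, 56 and 49 counts in oeControl libraries. The groups overlapped through oeTNFRSF12A replicate 3 and oeControl replicate 3. Its log2 fold change of -0.23 (SE 0.17, adjusted p = 0.288) had a 95% interval of -0.58 to 0.12, which holds both 0 and the TWIST1 value. A difference between the changes of the 2 TWIST genes was not tested.

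GRHL2, a Grainyhead factor that binds and keeps open epithelial enhancers, and OVOL1, a zinc finger repressor of ZEB1, were nearly undetected. GRHL2 (chromosome 8, 101492432 to 101669726, plus strand) had 0 counts in every oeTNFRSF12A library, against 1, 0 and 0 counts in oeControl libraries. OVOL1 (chromosome 11, 65787022 to 65797219, plus strand) had 0 counts in every oeTNFRSF12A library, against 0, 1 and 0 counts in oeControl libraries. A sum of 0 counts over a group allows up to 0.0547 CPM, taking 3 counts as the limit. Neither could be tested, and no fold is given because both groups lie at or under that limit.

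ESRP1, the epithelial splicing factor whose loss accompanies EMT, occupies bases 94641074 to 94707466 of chromosome 8, plus strand. It had 16, 12 and 17 counts in oeTNFRSF12A libraries, against 22, 25 and 31 counts in oeControl libraries. All oeTNFRSF12A values were below all oeControl values. The ratio of summed counts, 45 in oeTNFRSF12A and 78 in oeControl libraries, was 0.575 with an exact 95% counting interval of 0.389 to 0.840. The log2 fold change was -0.81 (SE 0.26, adjusted p = 0.0150). The call was lost in DESeq2 (adjusted p = 0.0973), without oeTNFRSF12A replicate 2 (0.0745) and without oeControl replicate 3 (0.0896), with 11 alternatives giving log2 fold changes of -0.92 to -0.67.

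ESRP2, its paralog, occupies bases 68229111 to 68238102 of chromosome 16, minus strand. Counts were 127, 103 and 153 in oeTNFRSF12A libraries and 160, 144 and 162 in oeControl libraries. OeTNFRSF12A replicate 3 stood inside the oeControl range, and the other oeTNFRSF12A libraries stood below it. Means were 6.93 ± 1.32 CPM in oeTNFRSF12A and 8.59 ± 0.54 CPM in oeControl libraries, and the log2 fold change was -0.31 (SE 0.12, adjusted p = 0.0381). This call was lost in 6 of 12 alternatives, at the extreme without oeTNFRSF12A replicate 2 (log2 fold change -0.18, adjusted p = 0.239). In exon sequence 149 bp are shared with NFATC3 on the opposite strand, which rose by 0.33 on the log2 scale.

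Ranges of CPM did not overlap between the groups for 2 of the 8 tested regulators, TWIST1 and ESRP1, against 51.3% of all tested genes. The summed level of GRHL2, OVOL1, ESRP1 and ESRP2 was 7.81, 6.27 and 9.16 CPM in oeTNFRSF12A libraries, against 10.2, 9.41 and 10.6 CPM in oeControl libraries. The 6 EMT transcription factors together held 103, 95.3 and 95.5 CPM in oeTNFRSF12A libraries, against 102, 99.7 and 99.6 CPM in oeControl libraries.

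**Figure D2:**
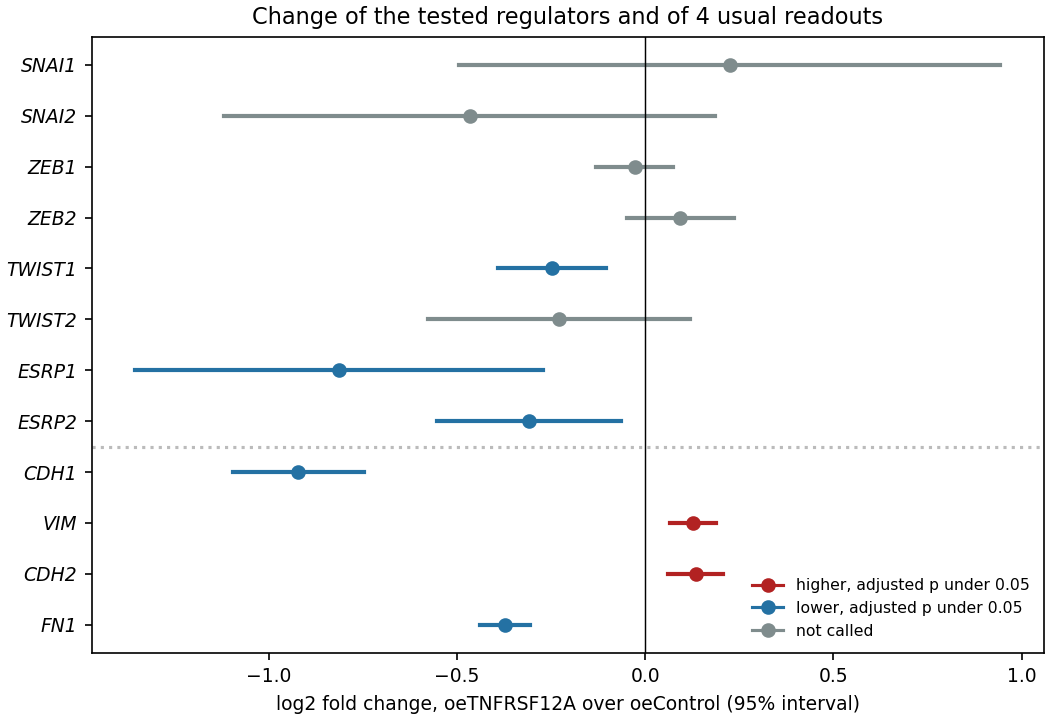
Log2 fold change of oeTNFRSF12A over oeControl libraries with its 95% interval for the 8 tested regulators (above the dotted line) and for CDH1, VIM, CDH2 and FN1 (below it), coloured by the edgeR call. ZEB1 has the narrowest interval among the 8 regulators, -0.13 to 0.07, and ESRP1 the lowest value, -0.81.

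Levels were compared between genes as CPM per kilobase of exon, averaged over the 6 libraries. TWIST1 (8.45 ± 0.81) and ZEB1 (5.78 ± 0.25, SD, n = 6) stood first and second. TWIST2 (1.45 ± 0.19), ESRP2 (1.40 ± 0.23) and ZEB2 (1.11 ± 0.09) followed, with TWIST2 and ESRP2 closer than their spread. SNAI1 (0.499 ± 0.177) came next, and ESRP1 (0.231 ± 0.079) and SNAI2 (0.229 ± 0.066) could not be ordered. Among all 19372 genes with a length, TWIST1 stood at the 74.7th percentile of level per kilobase, ZEB1 at the 66.9th, ESRP2 at the 45.8th and ESRP1 at the 36.3rd.

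Within paralog pairs, ESRP2 was 7.44-fold above ESRP1 per kilobase in oeTNFRSF12A libraries and 5.28-fold above it in oeControl libraries (geometric means, with SDs of the log2 ratio of 0.09 and 0.25, n = 3 each). TWIST2 was below TWIST1 in every library, with log2 ratios of -2.55 ± 0.22 in oeTNFRSF12A and -2.56 ± 0.14 in oeControl libraries. ZEB2 stood below ZEB1 by a log2 ratio of -2.33 ± 0.08 in oeTNFRSF12A and -2.45 ± 0.17 in oeControl libraries. That gap depends on the annotation, because the annotated exons of ZEB2 add up to 25058 bp while its longest transcript has 9583 bp; with longest transcripts the mean log2 ratio was -1.47, and ZEB2 (2.89 ± 0.24 CPM per kilobase) moved from the fifth to the third place. SNAI1 and SNAI2 changed order between libraries, with log2 ratios from -0.49 to 1.80.

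**Figure D3:**
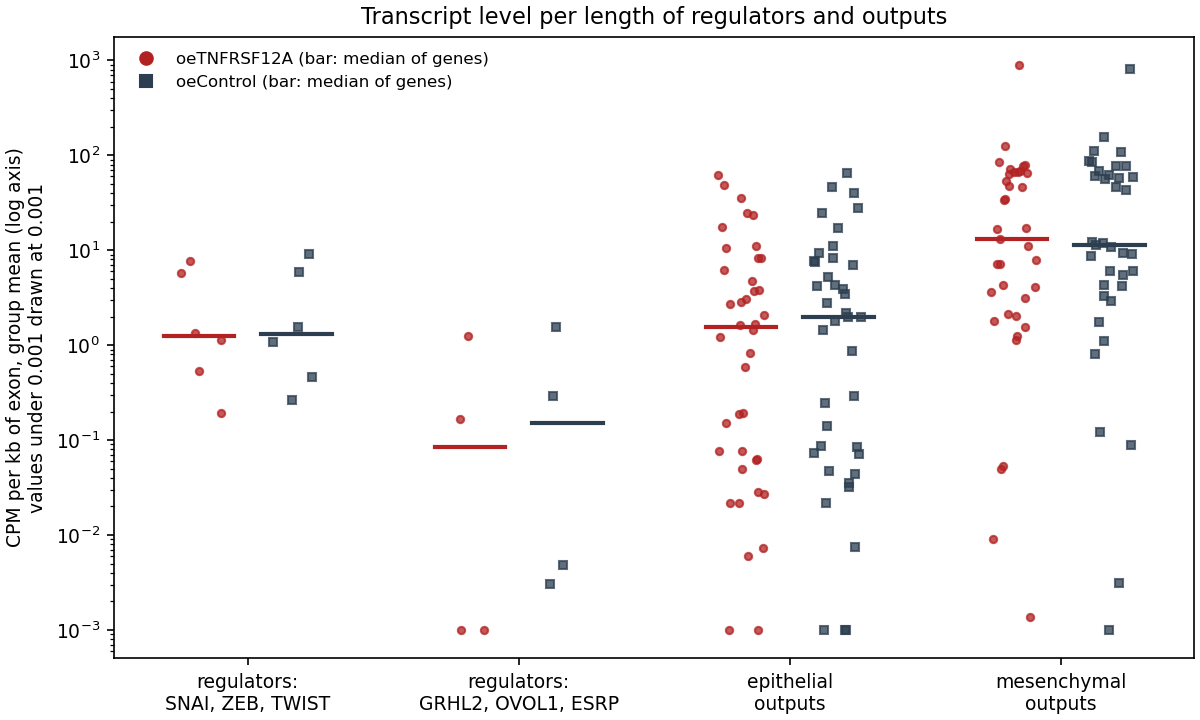
Group mean CPM per kilobase of exon (log axis) for the EMT transcription factors, the epithelial regulators and the genes of the epithelial and mesenchymal output lists, with oeTNFRSF12A as red circles, oeControl as dark squares bars at the medians and values under 0.001 drawn at 0.001. The median of the mesenchymal outputs is 13.2 in oeTNFRSF12A and 11.5 in oeControl libraries, against 1.54 in oeTNFRSF12A and 1.97 in oeControl libraries for the epithelial outputs. The mesenchymal medians belong to different genes, ITGA5 and MMP14, and so show no rise of a gene. The epithelial medians lie between CDH1 and CLDN3 in oeTNFRSF12A and between MARVELD2 and MUC1 in oeControl libraries. They likewise show no fall of a gene. Summed epithelial levels were 1715 to 1749 CPM in oeTNFRSF12A and 1806 to 1863 CPM in oeControl libraries. Summed mesenchymal levels were 12929 to 13471 CPM in oeTNFRSF12A and 13848 to 14349 CPM in oeControl libraries, and the median log2 fold change was -0.04.

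Relatives of the regulators and other factors of the same axis were called at a share near that of all genes. Of 36 listed genes 26 could be tested, of which 8 were higher and 4 lower (46.2% called, against 42.3% of all tested genes), and the median log2 fold change was 0.09. The count of 4 lower was 1 in DESeq2 and without oeControl replicate 3, and 2 without oeTNFRSF12A replicate 3 or oeControl replicate 2. TP63, the master factor of stratified epithelia, rose to 3.95 ± 0.46 CPM in oeTNFRSF12A libraries, against 1.16 ± 0.24 CPM in oeControl libraries (log2 fold change 1.76, SE 0.19). PRRX1, a mesenchymal homeobox factor, rose to 2.84 ± 0.44 CPM in oeTNFRSF12A libraries, against 1.07 ± 0.17 CPM in oeControl libraries (1.41, SE 0.21). KLF4, a factor of epithelial differentiation, rose by 0.53 on the log2 scale, and ELF3, an epithelial ETS factor, changed by -0.31. Of the genes named for their high CPM, HMGA2, a chromatin factor that can induce SNAI1 and TWIST1, was lower but near the cutoff (-0.17, SE 0.06, adjusted p = 0.0458). RBFOX2, a splicing factor active in mesenchymal cells and also named for its high CPM, was higher (0.11). The closest paralogs stayed uncalled or untested. GRHL1 averaged 2.72 ± 0.46 CPM in oeTNFRSF12A and 2.08 ± 0.08 CPM in oeControl libraries (adjusted p = 0.0934). GRHL3 had 7, 7 and 5 counts in oeTNFRSF12A libraries, against 11, 13 and 10 counts in oeControl libraries (adjusted p = 0.0777). OVOL2 had 0 counts in all libraries, and SNAI3 had 11 counts over the oeTNFRSF12A and 13 over the oeControl libraries.

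Most partners and turnover factors of the SNAI, ZEB and TWIST proteins were expressed in every library, while USP26 and PRKD1 had 0 counts in all libraries. Of 43 listed genes 39 reached 1 CPM in all libraries and 40 could be tested, of which 13 were higher and 6 lower, with a median of 0.04. The share called, 47.5%, was near the 42.3% of all tested genes. ID3, which sequesters E proteins and so limits TWIST dimers, rose to 69.2 ± 3.42 CPM in oeTNFRSF12A libraries, against 52.8 ± 3.69 CPM in oeControl libraries (log2 fold change 0.39). EZH2, a histone methyltransferase recruited by SNAI1, rose by 0.28 and MDM2, a ubiquitin ligase that acts on SNAI2, by 0.21. LIMD1, an Ajuba family corepressor of SNAI1, changed by -0.30. The kinase genes CSNK2A1 (-0.01) and CSNK1D (0.03), named for their high CPM, did not pass.

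Of 39 listed genes in pathways that can induce these regulators 36 were tested, with 11 higher and 12 lower and a median of 0.01. Some are inhibitors within those pathways, such as SMAD7, SKI, SKIL and AXIN2. The counts by direction therefore give no direction of signalling. The share called was 63.9%, against 42.3% of all tested genes. These genes had a median level per kilobase at the 80.4th percentile, and the part of level in that share was not tested. The NF-kB genes NFKB2 (1.41) and RELB (0.87) and the Notch ligand gene JAG1 (0.75) rose, and FGFR1, a receptor for fibroblast growth factors, reached 447 ± 4.07 CPM in oeTNFRSF12A libraries, against 668 ± 6.09 CPM in oeControl libraries (-0.58). HIF1A, the oxygen-regulated factor that can activate TWIST1, reached 704 ± 15.5 CPM in oeTNFRSF12A libraries, against 833 ± 10.7 CPM in oeControl libraries (-0.24). MET, the receptor of hepatocyte growth factor, stood at 0.03 without passing. TGFB3, a TGF-beta ligand chosen after its values were seen, rose to 14.1 ± 1.37 CPM in oeTNFRSF12A libraries, against 6.49 ± 0.09 CPM in oeControl libraries (1.12, SE 0.10). TGFB1 (-0.30) and the receptor gene TGFBR2 (-0.32), chosen in the same way, were lower. The more abundant ligand gene TGFB2, at 291 ± 19.1 CPM in oeTNFRSF12A and 274 ± 3.15 CPM in oeControl libraries (0.09), did not pass. Nor did the receptor gene TGFBR1 (-0.02). The largest adjusted p of the changes named in this paragraph as passing was 2.54e-07 (edgeR quasi-likelihood test, Benjamini-Hochberg).

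**Figure D4:**
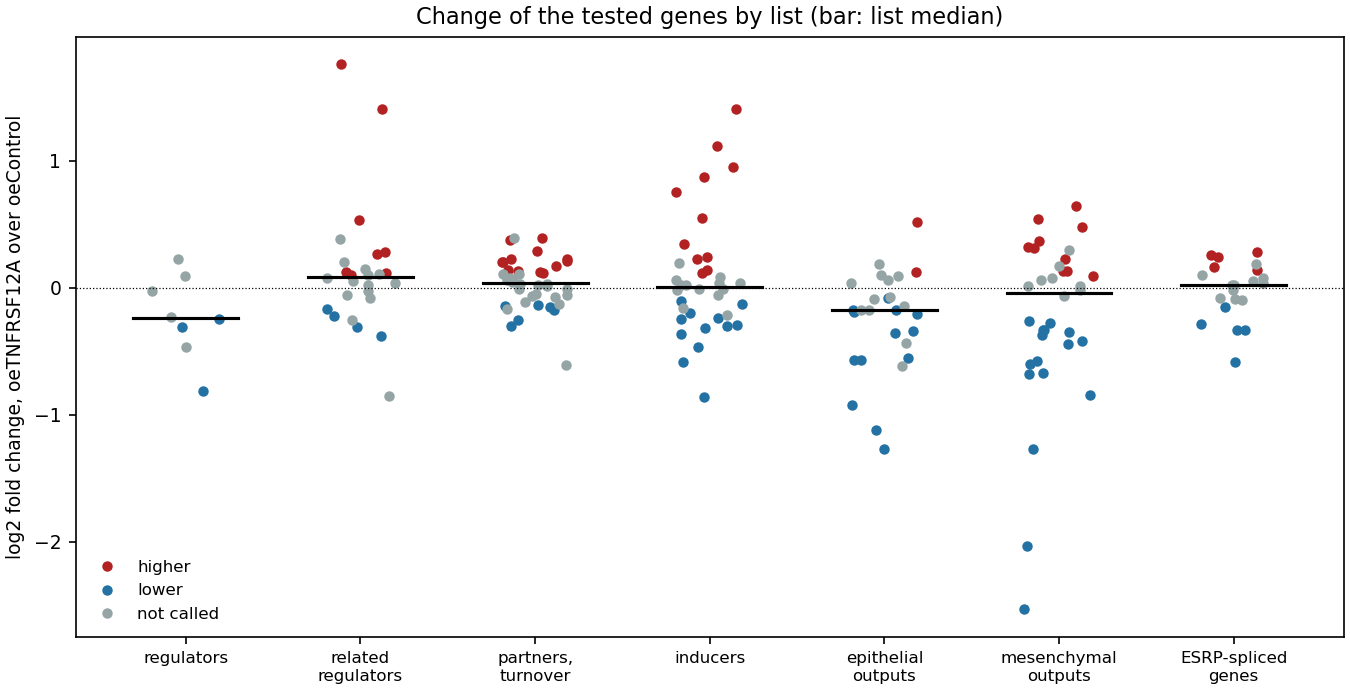
Log2 fold change of every tested gene in the regulators and the 6 lists around them, oeTNFRSF12A over oeControl, coloured by the edgeR call, with bars at the list medians. Medians lie between -0.24 for the regulators and 0.09 for the related regulators, and the mesenchymal outputs reach from -2.53 to 0.64.

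Epithelial outputs that the SNAI and ZEB factors repress or GRHL2 and OVOL factors keep on were mostly lower where they changed. Of 40 listed genes 27 could be tested, of which 2 were higher and 13 lower, and the median log2 fold change was -0.18. Of all tested genes, 21.2% were higher and 21.1% lower. The count of 2 higher was 1 in DESeq2 and when any single library other than oeTNFRSF12A replicate 3 was left out. CDH1, the epithelial cadherin and textbook target of these repressors, had 161, 160 and 176 counts in oeTNFRSF12A libraries, against 303, 290 and 332 counts in oeControl libraries. Its groups stood well apart, with a log2 fold change of -0.92 (SE 0.08, adjusted p = 3.06e-09). PPL, a plakin of cell envelopes, changed by -1.12 and the mucin gene MUC1 by -1.27. The desmosomal genes DSG2 (-0.09) and DSP (0.04), named for their high CPM, did not pass. The 13 genes that could not be tested, EPCAM, CLDN4 and CLDN7 among them, had sums over a group of 0 to 24 counts.

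Mesenchymal outputs changed in both directions. Of 37 listed genes 33 reached 1 CPM in all libraries, and of 34 tested 10 were higher and 16 lower, with a median of -0.04. That is 76.5% called, against 42.3% of all tested genes. The list's median level per kilobase stood at the 82.5th percentile of all genes with a length. The part of level in the share called was not tested. VIM, the intermediate filament of mesenchymal cells, averaged 4620 ± 107 CPM in oeTNFRSF12A and 4230 ± 95.5 CPM in oeControl libraries (log2 fold change 0.13, SE 0.03, adjusted p = 0.00132). CDH2, the neural cadherin, averaged 314 ± 17.1 CPM in oeTNFRSF12A and 286 ± 6.70 CPM in oeControl libraries (0.13, SE 0.04, adjusted p = 0.00381), a call lost without oeTNFRSF12A replicate 2 (adjusted p = 0.0544). FN1, fibronectin, was lower, with 1159 ± 49.2 CPM in oeTNFRSF12A and 1500 ± 28.5 CPM in oeControl libraries (-0.37, SE 0.03, adjusted p = 9.31e-10). COL1A1, a fibrillar collagen chain, averaged 333 ± 13.8 CPM in oeTNFRSF12A and 599 ± 31.9 CPM in oeControl libraries (-0.85). The matrix cross-linkers LOX (-2.03) and LOXL2 (-0.68), the integrin chain ITGB3 (-2.53) and the hyaluronan receptor CD44 (-0.33) were lower as well.

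Genes whose exons ESRP1 and ESRP2 splice could be read only as gene totals, since counts per gene hold no isoforms. Of 22 listed genes 21 were tested, of which 5 were higher and 5 lower, with a median of 0.02. The 47.6% called lay near the 42.3% of all tested genes. FGFR2, whose alternative exon is the classical ESRP switch, had 0 counts in all 6 libraries. FGFR1 and CD44, given above, were lower. SLK, a kinase of the cytoskeleton, changed by -0.28 and SCRIB, a polarity scaffold, rose by 0.26.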

How the data were processed

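Polyadenylated RNA of 6 libraries was sequenced, 3 of oeTNFRSF12A and 3 of oeControl cells, grouped by sample title. RSEM 1.3.1, Bowtie2 2.4.5 and HISAT2 2.2.1 are listed without roles, as are hg38 and GRCh38, per the submitters' processing notes. Not given in the sources used here are annotation, strand setting and filters. The authors deposited counts per gene symbol, taken here as RSEM expected counts from the processing notes. Rounding left every value unchanged, so they may have been rounded before deposit or be plain counts. Among 19396 rows, 1 without a name (0 counts, 0% of the total) was left out.

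From these, edgeR 4.0.16 (R 4.3.3) kept 12758 genes by filterByExpr (minimum count 10), scaled libraries by TMM and tested group alone with the robust quasi-likelihood test, adjusting by Benjamini-Hochberg over all 12758 genes. SE is the log2 fold change divided by the root of F. CPM uses TMM-scaled totals; 18 counts are about 1 CPM. Exon lengths and positions come from GENCODE 29, and microRNA sequences from RefSeq. Replicates of a group differed by chi-square statistics of 1.61 to 3.35 per gene, above sampling noise, so all libraries were counted. In counts simulated for these 12758 genes, every gene was given the same spread between libraries (coefficient of variation 2.83%). The fit called 33 of 50 genes altered 1.25-fold, 48 of 50 altered 1.5-fold and 49 of 50 altered 2-fold, with 6 false calls. Altered genes were drawn from all tested genes, so these shares do not hold for regulators with few counts. Intervals of log2 fold changes come from this fit and include the spread between libraries. Clopper-Pearson intervals and the limit from 0 counts cover counting error only, and PCR copies are not independent molecules.

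The regulators and lists were chosen with earlier results of these data known. Of each list, the 4 called genes with the lowest p and the 2 most abundant were named, with CDH1, VIM, CDH2 and FN1; other named genes were chosen after their values were seen, and 1 gene the rule selects is not reported here. No set was tested. Alternatives were other scalings, DESeq2 1.42.0, filters, a replicate block and leaving out each library.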

Additional observations from a re-analysis of the deposited data

How the results depend on the processing

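Among all tested genes, 5402 were called, and 3926 to 5616 under the 12 alternatives. The count of 3 called regulators was 1 in DESeq2, and 1 to 3 when single libraries were left out. It was 1 without oeTNFRSF12A replicate 2 and without oeControl replicate 3. The total called in each of the 6 gene lists stayed within 1.5 times of that reported under all 12, but counts by direction did not: 4 lower related regulators became 1 or 2 in 4 alternatives, and 2 higher epithelial outputs became 1 in 6. The fold changes of SNAI1 and ZEB1, neither called, turned sign without oeControl replicate 3 (-0.14) and without oeControl replicate 1 (0.0085); leaving out single libraries gave log2 fold changes of -0.14 to 0.57 for SNAI1 and -0.0691 to 0.0085 for ZEB1. With longest transcripts in place of exon unions, the log2 level of ZEB2 over ZEB1 was -1.47 in place of -2.39; ZEB2's many annotated exons set this. With the replicate number as a block, 5396 genes and 3 regulators were called. Same-numbered libraries of the groups did not deviate together (correlations of -0.0791, 0.0772 and 0.0642), and not every library correlated best with its own number, so the numbers were not used as pairs. The stricter filter left SNAI1, SNAI2 and ESRP1 untested. No ratio was computed for GRHL2 or OVOL1, which are at or under 3 counts in both groups. For genes with 6 to 31 counts per library, depth limits what could be called.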
